A study of Homo sapiens with 8 samples.

Results

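The Notch pathway genes described here were 4 groups of members: the receptors NOTCH1, NOTCH2 and NOTCH3, the ligands JAG1, JAG2 and DLL1, the targets HES1, HEY1 and NRARP, and the receptor-modifying enzyme LFNG. They were listed by symbol, and every probe whose RefSeq accession maps to a listed symbol was taken. Of the 10 genes, 9 had a probe, with 12 of the 41000 probes on the array. NRARP had no probe by this rule and has no value. After a filter on dim probes, 8 genes and 10 probes were among the 26014 probes tested. The DLL1 probe and 1 of the 3 HES1 probes were too dim.

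RNA came from H460 cells, an established human non-small cell lung cancer (NSCLC) line, and from 2 populations derived from it. H460C are cancer stem cells (CSCs), obtained by growing H460 cells without attachment in serum-free DMEM/F12 with glutamine, Hepes, BSA, N2, EGF and FGF-b. H460R are cisplatin-resistant cells, the cells that remained after 72 h with cisplatin at 0.5 µg/mL and were then kept without the drug in RPMI with serum, the medium of H460 cells. The CSCs were defined by how they grew and not by a sorted marker, and for H460C the medium, the attachment and the population cannot be told apart. Replicate RNA samples numbered 2 in each population, and they were set against H460 RNA on dual-color arrays, 2 with swapped dyes for each sample and 8 in all. The labels name 1 H460 RNA, which both comparisons share.

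The difference of the 2 H460C samples was within hybridization noise (r = -0.01 between the dye orientations for that difference, against 0.26 for H460R). H460C was therefore counted as 1 sample and is given without SD, while H460R is given as mean ± SD (n = 2), and the tests kept the labelled samples. Nothing in the labels says that the samples were separate cultures, so no p-value measures a spread between cultures. Where a p-value rests on a spread, it is the spread between these samples, and for H460C that of hybridizations. Each population lay on a slide of its own, and slide and population cannot be told apart. H460R arrays had 26008 to 28446 probes well above background, H460C arrays 25868 to 28499, and the H460 channels 22834 to 26966. The epithelial keratins KRT8, KRT18 and KRT19 were above background in all 16 channels. EPCAM was above it in 4 of 4 H460C, 3 of 4 H460R and 7 of 8 H460 channels, and CDH1 (E-cadherin) in 4 of 4 H460C channels and 0 of the others. Of the leukocyte and endothelial markers, PTPRC was above background in 0 channels, CDH5 in 1 H460 channel and PECAM1 in the 4 H460C channels. VWF was above it in 3 H460C, 4 H460R and 4 H460 channels, CD3E in 4, 4 and 6, and CD14 in all 16. Their part in the Notch values was not tested.

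Notch receptors are cut in stages after a Jagged or Delta-like ligand on a neighbouring cell binds them. The intracellular part then enters the nucleus, where it joins RBPJ and a Mastermind-like protein and switches on target genes, chiefly the HES and HEY repressors. In the lung, HES1 is known for holding back neuroendocrine differentiation, and Notch signalling is widely studied in tumor cells that grow as spheres.

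HES1 is the classic example of a Notch target, and its promoter is shown because HES1 rose most among the members in cisplatin-resistant cells. The 250 bases before its start are printed from RefSeq (GRCh38.p14, chr3:194135898-194136147, + strand). Capitals mark TGGGAA, the core of the RBPJ motif, and CACNAG, the N box that HES proteins bind, searched on both strands.

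HES1 promoter: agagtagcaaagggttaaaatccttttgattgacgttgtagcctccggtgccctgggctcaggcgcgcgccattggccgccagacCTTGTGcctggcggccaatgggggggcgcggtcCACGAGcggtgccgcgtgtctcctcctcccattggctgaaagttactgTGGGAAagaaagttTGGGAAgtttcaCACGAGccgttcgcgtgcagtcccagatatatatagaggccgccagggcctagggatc

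TGGGAA occurred at 84 and 70 bases before the start. CACNAG occurred at 165 bases on the - strand and at 132 and 58 bases on the + strand. Among 35116 promoters of this length, 20.8% held TGGGAA at least 1 time and 2.90% at least 2 times. CACNAG was found at least 1 time in 32.0% of them and at least 3 times in 0.911%. The table held 8 of the 10 members (9 entries). LFNG had 1 match of each motif in an entry and NOTCH3 had 1 CACNAG, while the NOTCH1, NOTCH2, JAG1, JAG2 and NRARP windows held no match. A match is a description of the letters and not a binding site.

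A different HES or HEY target stood out in each population. HEY1 was 10.5-fold higher in CSCs than in H460 cells and was near the H460 level in cisplatin-resistant cells. HES1 was 7.92-fold higher in cisplatin-resistant cells and read 2.94-fold over H460 in CSCs, which did not pass the test. The receptors NOTCH1, NOTCH2 and NOTCH3 read between -0.26 and 0.11 over H460 on the log2 scale in both populations. Other processing settings moved these values, to as low as -0.61 (NOTCH1 in H460R) and as high as 0.43 (NOTCH2 in H460C). NOTCH4, a receptor outside the members, read -1.52 in H460C and -0.87 in H460R at its brightest probe. Its other probe read -0.26 and -0.29. Of the ligands, JAG1 read about the same amount over H460 in both, and JAG2 was higher in CSCs than in cisplatin-resistant cells.

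**Figure D1:**
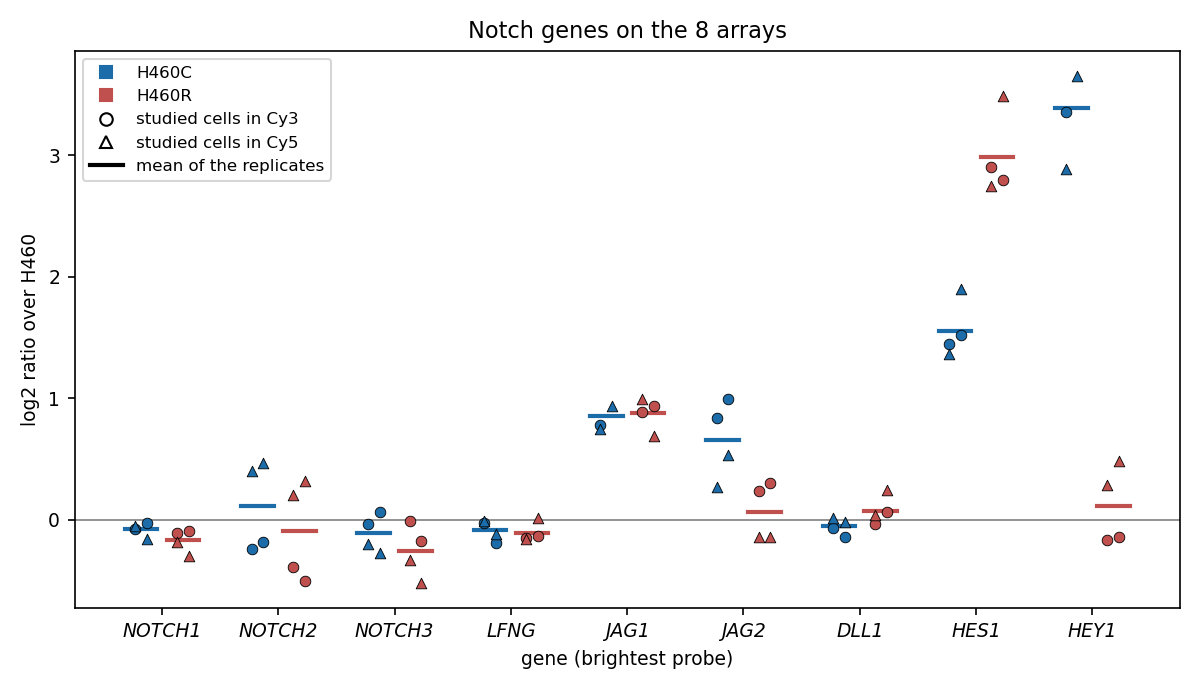
Log2 ratio over H460 (vertical axis) of the 9 genes with a probe, read from the brightest probe. Points are arrays, circles with the studied cells in Cy3 and triangles in Cy5, and bars are the mean of the replicates. HEY1 in H460C lies between 2.89 and 3.65 and HES1 in H460R between 2.75 and 3.49, while the NOTCH1 points all lie under 0.

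Each comparison with H460 was tested with Rank Products (exact distribution of the product of 2 ranks, FDR over all probes tested). It takes the 2 ratios of a population as independent. The difference of the 2 H460C samples was within hybridization noise, so the FDRs in H460C may be too small. Of the 8 genes tested, each at its brightest probe, 1 was called in H460C (HEY1) and 1 in H460R (HES1). Of all 12352 gene symbols read the same way, 1.26% were called in H460C and 1.07% in H460R. At an unadjusted p under 0.05, 3 members were higher in H460C and 2 in H460R, where 18.6% and 18.2% of all probes passed in either direction. limma on the 4 replicate ratios, in which the H460 RNA cancels, set the populations against each other. It called 4 of the 8 genes, where 60.1% of all symbols were called. NOTCH2, JAG2 and HEY1 were the 3 called as higher in H460C, as were 30.8% of symbols, and HES1 was the 1 called as lower, as were 29.2%. limma against 0 called 4 members in H460C, all higher, and 4 in H460R, 2 of them higher and 2 lower, where 73% and 69.7% of symbols were called. The median log2 difference over the 8 genes was 0.12, against 0.02 over all 12352 symbols.

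HEY1, a repressor of the hairy and enhancer-of-split family that Notch switches on, has 1 probe on the array (A_32_P83845, NM_012258). In H460C replicate 1 its log2 ratio over H460 was 3.36 with H460C in Cy3 and 2.89 with H460C in Cy5. In H460C replicate 2 it was 3.65 with H460C in Cy5, and the other array had its spot marked as an outlier, so that this replicate rests on 1 array. The authors' processed table gave 3.21 for the array left out and 3.11, 3.39 and 3.43 for the rest. All arrays of H460C with a value thus lay far above H460.

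In H460R, HEY1 read -0.17 and -0.15 on the arrays with H460R in Cy3 and 0.29 and 0.48 on those with H460R in Cy5. The sign followed the dye, and the mean was 0.11 ± 0.077 (SD, n = 2). The mean in H460C was 3.39, with an FDR of 0.00590 (exact Rank Products), and HEY1 took place 22 among the 26014 probes by mean ratio. The FDR in H460R was 1. The direct difference was 3.27 (SE 0.18, 95% interval 2.83 to 3.72), or 9.68-fold, with a limma adjusted p of 1.83e-04. The array ratios of the populations did not overlap for HEY1, as for 35% of all probes. The normalized log2 signal of the HEY1 probe averaged 11.2 for H460C against 7.91 for H460 on the same arrays, and 7.74 for H460R against 7.63. The HEY1 probe was well above background in all 16 channels. Fewer cells with a transcript and less of it in each cell cannot be told apart in RNA of whole cultures.

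**Figure D2:**
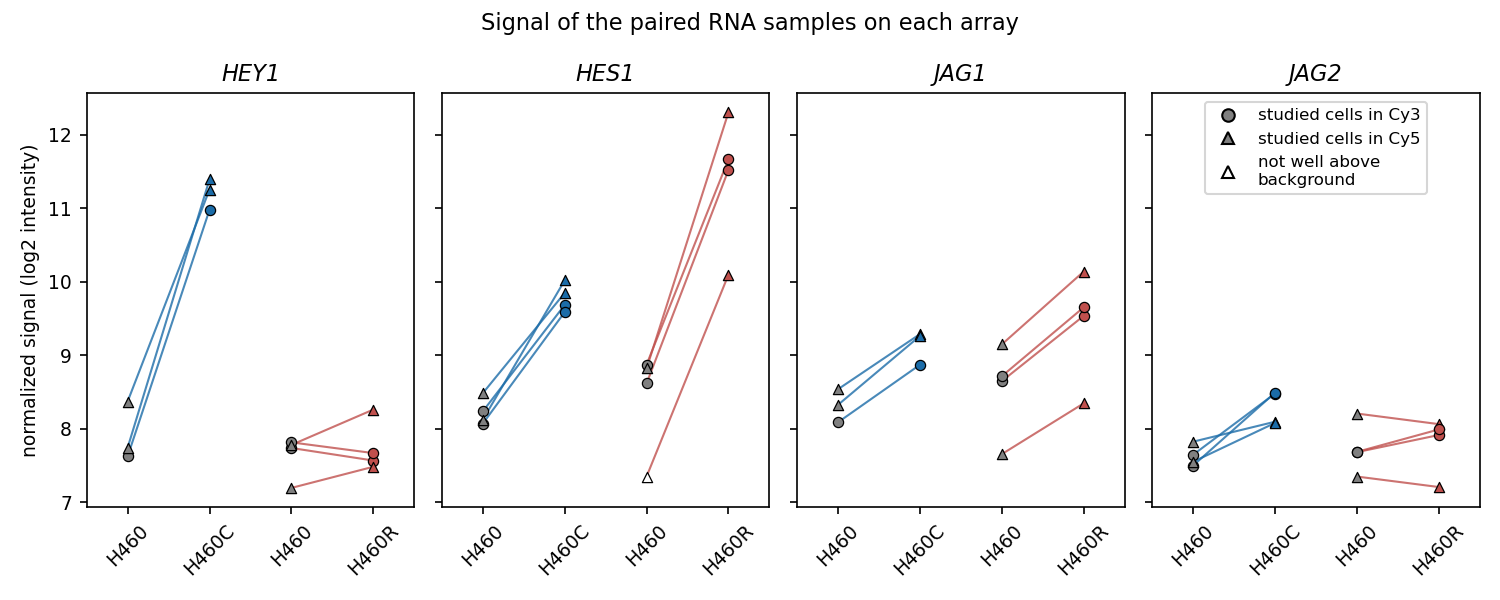
Normalized log2 signal (vertical axis) of H460 and of the studied cells, joined by a line for each array, for HEY1, HES1, JAG1 and JAG2. The HEY1 signal averages 11.2 in H460C against 7.91 in H460, and the HES1 signal 11.4 in H460R against 8.41; the white symbol is a channel not well above background.

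HES1, a repressor that Notch switches on directly in many cell types, has 3 probes with the accession NM_005524. At the brightest of them (A_24_P938293) the log2 ratios of H460R over H460 were 2.91 and 2.75 in replicate 1 and 2.80 and 3.49 in replicate 2, with H460R in Cy3 first. Those of H460C were 1.45 and 1.36 in replicate 1 and 1.52 and 1.90 in replicate 2, in the same order. Every array of both populations was above 0, and every H460R array was above every H460C array. The H460 signal was not well above background on 1 of the 8 arrays (H460R replicate 1 with H460R in Cy5), where the ratio of 2.75 was the lowest of the H460R values.

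The mean log2 ratio of HES1 was 2.98 ± 0.22 (SD, n = 2) in H460R, with an FDR of 0.00109 (exact Rank Products), and place 7 among all probes tested. In H460C it was 1.56, with an FDR of 0.150 and place 410, and 1.57% of probes read higher. limma against 0 called HES1 in H460C too (adjusted p of 1.34e-04), a test that called 73% of all symbols there. The direct difference was -1.43 (SE 0.14, 95% interval -1.79 to -1.06), or 2.69-fold lower in H460C, with a limma adjusted p of 0.00102. Rank Products on the differences of same-numbered replicates did not call it (exact, FDR 0.179). On the H460R arrays the HES1 signal averaged 11.4 for H460R and 8.41 for H460, and on the H460C arrays 9.79 for H460C and 8.23 for H460.

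The second HES1 probe (A_23_P17998) gave a mean of 1.65 ± 0.44 (SD, n = 2) in H460R and 0.74 in H460C. Its FDRs were 0.0554 and 0.514 (exact Rank Products), so it was not called in either, and the direct difference of -0.91 (SE 0.26) had a limma adjusted p of 0.0316. On the H460R arrays it read 0.72 and 1.11 with H460R in Cy3, where H460 was not well above background, and 1.96 and 2.82 with H460R in Cy5. On 1 H460C array (replicate 1 with H460C in Cy5) neither channel was above background and the ratio was 0.03, while the others read 0.93, 1.07 and 0.94. The array ratios of the populations overlapped at this probe. The third HES1 probe (A_23_P6596) was above background in 0 of the 16 channels and carries no level. The means of the 2 probes tested thus gave the same order of the populations with different sizes. At the second probe the Cy3 arrays showed no order, with 0.72 and 1.11 in H460R against 0.93 and 1.07 in H460C.

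**Figure D3:**
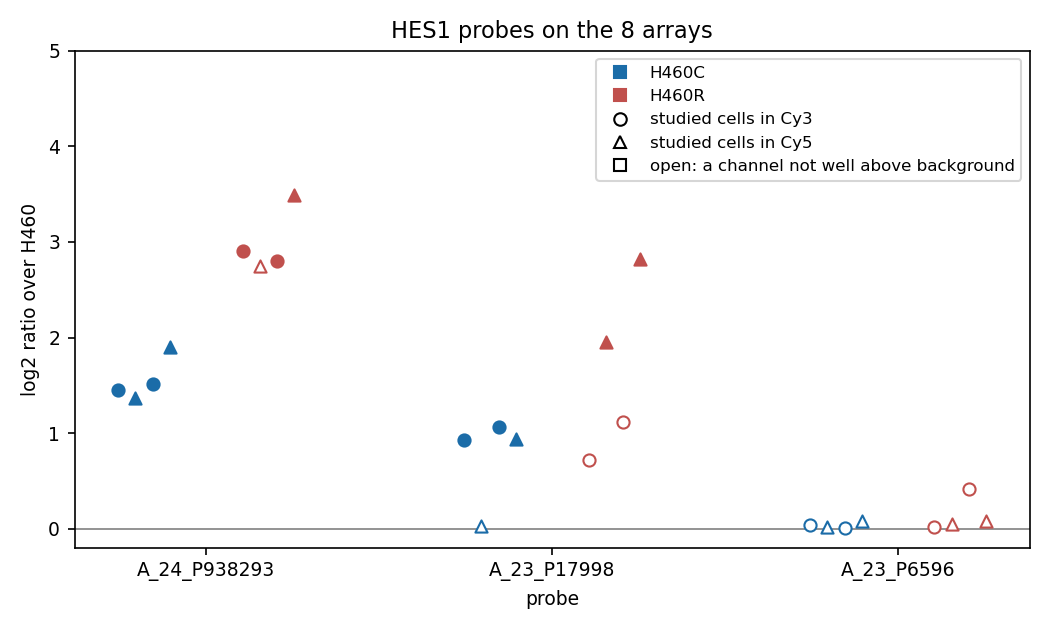
Log2 ratio over H460 (vertical axis) of the 3 HES1 probes on each array, circles with the studied cells in Cy3 and triangles in Cy5; an open symbol has a channel not well above background. H460R lies above H460C at the brightest probe without overlap, while at A_23_P17998 the H460R arrays spread from 0.72 to 2.82.

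By the Euclidean distance over the 4 replicate ratios, the symbols with a pattern closest to the brightest HES1 probe were FOS, RSPO3, H1-2, TP53INP1 and H2AC18. FOS, a subunit of the AP-1 transcription factor, lay at a distance of 0.615, with mean log2 ratios of 1.89 in H460C and 2.76 in H460R. RSPO3, a secreted enhancer of Wnt signalling, lay at 0.691, with 1.72 and 2.59. The histone genes H1-2 and H2AC18 lay at 0.957 and 1.07, and TP53INP1, a p53 target, at 1.01. This is a likeness of 4 values only.

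JAG1, a Jagged ligand (A_23_P210763, NM_000214), read nearly the same in both populations. In H460C its log2 ratios over H460 were 0.78 and 0.75 in replicate 1 and 0.94 on the array of replicate 2 with H460C in Cy5, the other array being marked as an outlier. In H460R they were 0.89 and 0.99 in replicate 1 and 0.94 and 0.69 in replicate 2. All 7 arrays were above 0 and the ranges overlapped. The means were 0.85 in H460C (1.81-fold) and 0.88 ± 0.089 (SD, n = 2) in H460R (1.84-fold). Neither passed Rank Products (exact, FDR 0.431 and 0.347), since 6.58% and 4.88% of all probes read higher, but limma against 0 gave adjusted p-values of 1.64e-04 and 1.78e-04. The direct difference was -0.03 (SE 0.085, 95% interval -0.24 to 0.19, limma adjusted p of 0.816). The interval bounds the difference without showing that the populations were equal.

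JAG2, the other Jagged ligand (A_23_P106024, NM_002226), read 0.83 and 0.27 in H460C replicate 1 and 0.99 and 0.53 in replicate 2, with H460C in Cy3 first. In H460R it read 0.23 and -0.14 in replicate 1 and 0.31 and -0.14 in replicate 2. Arrays with the studied cells in Cy3 were higher than those in Cy5 in each sample, and the ranges of the populations overlapped by 1 pair of opposite dyes. Within each dye, both H460C arrays were above both H460R arrays. The mean was 0.66 in H460C (1.58-fold, FDR 0.577 by exact Rank Products) and 0.06 ± 0.026 (SD, n = 2) in H460R (FDR 1). The direct difference of 0.59 (SE 0.084, 95% interval 0.38 to 0.81) had a limma adjusted p of 0.00302, and exact Rank Products on the differences gave an FDR of 0.558. DLL1, a Delta-like ligand (A_23_P167920, NM_005618), was above background in 2 of 4 H460C channels, 2 of 4 H460R channels and 3 of 8 H460 channels, and was not tested. Its log2 ratios lay between -0.14 and 0.01 in H460C and between -0.04 and 0.24 in H460R.

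Of the receptors, NOTCH1 (A_23_P60387, NM_017617) has 10 spots on each array. Its log2 ratios were -0.08, -0.05, -0.03 and -0.16 in H460C and -0.11, -0.19, -0.09 and -0.30 in H460R. All 8 were under 0, with means of -0.08 in H460C and -0.17 ± 0.033 (SD, n = 2) in H460R. The normalized log2 signal of NOTCH1 was low, averaging 6.86 for H460C and 6.80 for H460R. NOTCH3 (A_24_P399606, NM_000435) read -0.03, -0.20, 0.06 and -0.27 in H460C and -0.01, -0.33, -0.17 and -0.52 in H460R, with means of -0.11 and -0.26 ± 0.12 (SD, n = 2). By limma against 0, both receptors passed in H460R (adjusted p of 0.0127 for NOTCH1 and 0.00854 for NOTCH3), where 33.7% of all symbols passed as lower, and neither passed in H460C. Without H460R replicate 2 neither passed in H460R. Neither differed between the populations by limma (adjusted p of 0.225 and 0.155). The ratios depended on the processing. With those of the Feature Extraction software, NOTCH1 read -0.40 in H460C and -0.61 in H460R, and NOTCH3 read -0.40 and -0.51.

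NOTCH2 (A_23_P200792, NM_024408) showed the clearest dye effect of the receptors. With the studied cells in Cy3 it read -0.24 and -0.18 in H460C and -0.39 and -0.50 in H460R. With them in Cy5 it read 0.40 and 0.46 in H460C and 0.20 and 0.32 in H460R. H460C was the higher within each dye. The means over the dyes were 0.11 in H460C and -0.09 ± 0.0013 (SD, n = 2) in H460R, with FDRs of 1 for both. The difference of 0.21 (SE 0.056, 95% interval 0.06 to 0.35) had a limma adjusted p of 0.0282. With the H460C samples averaged into 1 the adjusted p was 0.111, and the call was lost under 8 of the 18 alternatives. Leaving out any of the 4 replicates was among them, with limma adjusted p-values of 0.0735 and 0.164 without H460C replicates 1 and 2, and 0.0743 and 0.0726 without H460R replicates 1 and 2.

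LFNG, a Fringe enzyme that adds sugar to Notch receptors and shifts their choice of ligand, has 2 probes for different transcripts. The brighter (A_23_P434518, NM_001040168) read -0.03, -0.01, -0.19 and -0.12 in H460C and -0.15, -0.16, -0.14 and 0.01 in H460R. The means were -0.09 and -0.11 ± 0.065 (SD, n = 2), and the difference of 0.02 had a limma adjusted p of 0.822. The other LFNG probe (A_23_P8452, NM_001040167) was well above background in 4 of 4 H460C channels, 1 of 4 H460R channels and 0 of 8 H460 channels. Its normalized log2 signal averaged 6.83 for H460C against 6.53 for H460 on the same arrays, and Rank Products did not call it (exact, FDR 0.950). It passed the filter on dim probes only through H460C, so neither a rise over H460 nor a difference between the populations is read from it.

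Beyond these members, a list of 54 further genes of the pathway was read the same way, of which 47 had a probe and 39 were tested. Rank Products called 0 of the 39 in either population. At an unadjusted p under 0.05 (exact Rank Products) 5 were higher and 4 lower in H460C, and 4 higher and 5 lower in H460R. Of all probes, 18.6% in H460C and 18.2% in H460R passed this threshold in either direction. limma against 0 called 12 higher and 15 lower in H460C and 12 higher and 16 lower in H460R, or 27 and 28 of 39 against 73% and 69.7% of all symbols. The direct comparison called 10 as higher and 13 as lower in H460C, 23 of 39 against 60.1% of all symbols. The median log2 ratio of the 39 was -0.10 in H460C and -0.05 in H460R, against -0.0021 and 0.0030 over all symbols.

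**Figure D4:**
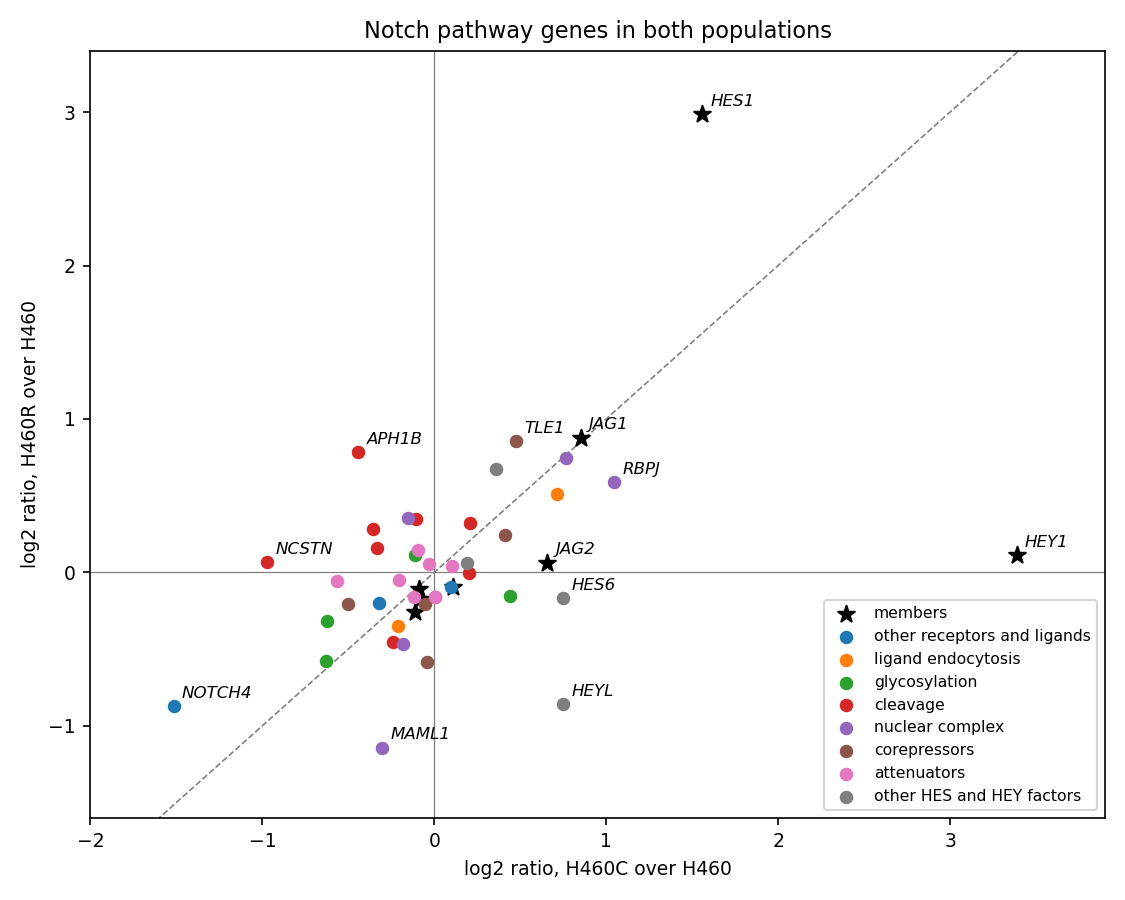
Mean log2 ratio over H460 in H460C (horizontal axis) and in H460R (vertical axis) of the 8 members tested (stars) and the 39 further pathway genes tested (circles, colored by role), with the line of equal ratios dashed. HEY1 and HES1 lie apart from the rest, which read between -1.52 and 1.05 in H460C and between -1.14 and 0.88 in H460R; both axes share the H460 RNA.

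Among the other HES and HEY factors, 4 of 9 were tested. HEYL, a close relative of HEY1, had log2 ratios of 0.75 in H460C and -0.86 ± 0.036 (SD, n = 2) in H460R, and the difference of 1.61 had a limma adjusted p of 3.04e-04. HES6, which is known to oppose HES1, had 0.75 and -0.17 (difference 0.92, limma adjusted p of 7.39e-04). HES7 was the lower in H460C, with 0.36 against 0.68 in H460R (difference -0.32, limma adjusted p of 0.0302). HES4 did not pass (0.19 and 0.06, limma adjusted p of 0.149), and HES2 and HEY2 were too dim to test.

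All 9 genes of receptor cleavage were tested, and the direct comparison called 5 of them as lower and 1 as higher in H460C, against 29.2% and 30.8% of all symbols. The lower genes were APH1B, NCSTN and APH1A, subunits of the gamma-secretase that frees the intracellular part, ADAM10, the protease that cuts before it, and FURIN, which processes the new receptor. APH1B had log2 ratios of -0.44 in H460C and 0.78 in H460R, a difference of -1.23 (limma adjusted p of 2.63e-04). NCSTN had -0.97 and 0.07, a difference of -1.04 (adjusted p of 0.00126). ADAM10 differed by -0.46 (adjusted p of 0.00176), FURIN by -0.64 (adjusted p of 0.00809) and APH1A by -0.50 (adjusted p of 0.0157), and a second APH1A probe did not pass (adjusted p of 0.0624). PSEN2, a catalytic subunit, was the higher by 0.20 at its brightest probe (adjusted p of 0.0274), and its other probes did not pass (adjusted p of 0.101 and 0.0773). The median difference of the 9 genes was -0.46, against 0.02 over all symbols.

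In the nuclear complex, 5 of 7 genes were tested. RBPJ, the DNA-binding partner of Notch, read 1.05 in H460C and 0.59 in H460R at its brightest probe, and 0.34 and 0.08 at a second one. The difference of 0.46 had a limma adjusted p of 0.00176, and the second probe passed too (adjusted p of 0.0126). MAML1, a Mastermind-like coactivator, read -0.30 in H460C and -1.14 in H460R (FDR 0.0859 there by exact Rank Products), with a limma adjusted p of 2.98e-04 for the difference of 0.84. Its second probe read -0.33 and -0.77. The acetyltransferase EP300 read 0.77 and 0.74, with a limma adjusted p of 0.842 for the difference. SNW1 was higher in H460C by 0.28 and KAT2B lower by 0.51 (limma adjusted p of 0.00955 and 0.0100).

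Of 5 corepressors tested, HDAC1, a histone deacetylase, was the higher in H460C, by 0.54 (limma adjusted p of 0.00118). TLE1, a Groucho protein that HES factors recruit, was lower (difference -0.38, limma adjusted p of 0.00348), with ratios of 0.48 and 0.86 over H460. The fourth receptor, NOTCH4, read -1.52 in H460C and -0.87 in H460R at its brightest probe (difference -0.64, limma adjusted p of 0.00452). Its other probe read -0.26 and -0.29 and did not differ (adjusted p of 0.853). DLK2 passed by a small margin (0.20, adjusted p of 0.0472). The Fringe enzyme MFNG was higher in H460C (difference 0.60, adjusted p of 0.00584) and the fucosyltransferase POFUT1 lower (-0.23, adjusted p of 0.0305). Among 7 attenuators, DTX3 (-0.51, adjusted p of 0.00190) and FBXW7 (-0.24, adjusted p of 0.0173) were lower in H460C. MAPK8IP1 was well above background in 4 of 4 H460C, 3 of 4 H460R and 7 of 8 H460 channels. It passed the filter on dim probes only through H460C, so its difference is not given, though the counts above include it as higher. KAT2B passed it only through H460C too, being above background in 3 of 4 H460R and 4 of 8 H460 channels. DLK2 and HES6 passed only through H460R, with 3 of 4 H460C channels each and 3 and 7 of 8 H460 channels. Each of these genes read lower in the population through which it passed. The other DTX3 probes did not pass (adjusted p of 0.0822 and 0.0839). The ubiquitin ligases MIB1 and MIB2, which ready the ligands, did not pass at their brightest probes (adjusted p of 0.0806 and 0.0878). The other MIB1 probes did, both as higher in H460C (adjusted p of 0.0355 and 0.00504).

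Neuroendocrine factors and markers were read beside HES1. NEUROD1, a neurogenic transcription factor, and SYP, a synaptic vesicle protein, were above background in 0 channels. CHGA, which codes for a secretory granule protein, read -1.14 in H460C and 0.48 in H460R (difference -1.61, limma adjusted p of 2.25e-04). NCAM1 differed by -0.36 (limma adjusted p of 0.00509), and INSM1 did not pass (adjusted p of 0.0637). NCAM1 was above background in 4 of 4 H460C, 3 of 4 H460R and 7 of 8 H460 channels.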

How the data were processed

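The labels gave the populations, the replicates and the dyes. The authors hybridized the arrays and extracted the spots with Feature Extraction 10.1.1.1, and the submitters' processing notes name limma. The values used were the deposited intensities, medians of each spot and of the background around it with no normalization, in place of the mean intensities that the design had named. The deposited log10 ratios of the software and the authors' processed table of log2 ratios were alternatives. The scale and direction of that table were read from the scanner values, and its normalization is not given in the sources used here. For 1 array (H460C replicate 1, H460C in Cy3) the log10 ratios had lost their decimal points and were divided by 10 to the power of 9. The deposited scores of 0 or 1 mark outlier spots and signals well above background. Columns without a sample numbered 0.

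Background was corrected with normexp (offset 50) and ratios were normalized by loess in limma 3.58.1 (R 4.3.3). Outlier spots were left out, 43376 spots were averaged into 41000 probes, and the filter asked for a share of 0.5 or more of a probe's spots well above background, in each channel that held the RNA of some population. A dye-swap pair gave 1 ratio, from the remaining array where a spot was left out. The number of arrays limits the precision. RefSeq names of 23958 of 25868 probes matched a symbol (GRCh38.p14, names only). Each gene took its values from the probe of highest mean signal.

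Rank Products (exact, both directions, FDR 0.05) tested each population against a ratio of 0, which leaves out the spread of H460 itself. limma (two-sided, 2 residual and 3.24 prior degrees of freedom, adjusted p 0.05) tested H460C minus H460R. Both used Benjamini-Hochberg adjustment over all 26014 probes and were tested on simulated data. Members and lists were chosen with earlier results of these data known. Named are all members, the list genes that passed a test, up to 4 examples a role, and the 5 symbols nearest to HES1. Some genes that this rule selects are not reported here. Alternatives were other log ratios, backgrounds, normalizations, filters, dye orientations, probes, tests and left-out replicates, a replicate block and averaged H460C samples. Keeping outlier spots was added after seeing the data.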

Additional observations from a re-analysis of the deposited data

Results flagged for a closer look

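Of the 8 members tested, 4 had ratios over H460 that differed between CSCs and cisplatin-resistant cells by limma on the 4 replicate ratios. The same test called 60.1% of all symbols. HEY1 was higher in H460C by 3.27 on the log2 scale (adjusted p of 1.83e-04) and HES1 differed by -1.43 (adjusted p of 0.00102). JAG2 was higher in H460C by 0.59 (adjusted p of 0.00302). NOTCH2 was higher by 0.21 (adjusted p of 0.0282), the smallest of these differences, and its sign over H460 followed the dye in both populations.

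LFNG had an array that stood apart at its brighter probe. In H460R replicate 2 with H460R in Cy5 the log2 ratio was 0.0148, while the other 3 H460R arrays lay between -0.16 and -0.14. The gap took up 0.880 of the range of the group, past the limit of Dixon's test for 4 arrays, which chance passes in about 1 of 20 groups.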

How the results depend on the processing

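For the members, limma in place of Rank Products called 4 genes in H460C and 4 in H460R, where 70.8% and 68.4% of all probes were called. The H460R call of HES1 became 0 calls under the stricter filter, which drops HES1 because H460 was dim on 1 array. With the Cy3 arrays alone 0 members were called in H460C, since HEY1 and JAG1 then lack a ratio. Rank Products on the differences of same-numbered replicates called 1 member in the direct comparison. Leaving out a replicate left 1 labelled sample in that population, so counts of members called are not given. HEY1 in H460C then read 3.65 without replicate 1 and 3.12 without replicate 2. HES1 in H460R read 3.14 without replicate 1 and 2.83 without replicate 2. With the replicate number as a block, 4 members and 24 of the wider list passed in the direct comparison, where 59.8% of all probes did. The numbers gave a correlation of 0.21 in the single pair of deviations that the design allows, and are not taken as a pairing.

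For the wider list, the ratios of the Feature Extraction software and the Cy3 arrays alone each called 1 gene in H460R, and limma called 27 in H460C and 28 in H460R. Leaving out a replicate gave 19 to 23 in H460C, 19 to 22 in H460R and 18 to 19 in the direct comparison. The leave-out counts over H460 are calls of limma and not of Rank Products. All leave-out counts rest on a population with 1 labelled sample. A similar share of all probes was called in each of these settings, so no change of the pathway is read from them. The direct comparison called 11 with median centring, 13 with the Cy5 arrays alone and 0 by Rank Products, against 23. The share of all probes called fell from 55.2% to 29.7%, 32.7% and 0.961%. Except where named, the cause was not tested.

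HEY1 in H460C ranged from 3.12 to 4.21 and was called under all 13 alternatives that gave a value, as was HES1 in H460R (2.32 to 3.79). HES1 in H460C (1.15 to 1.94) was called only by limma, in 3 settings. The direct difference of JAG2 was called in 17 of 18, that of HES1 in 16 of 17, that of HEY1 in 17 of 17 and that of NOTCH2 in 10 of 18. JAG1 turned the sign of its difference in 5 of 17, without a call. Over the values of single genes, 329 kept their call, 10 lost it and 17 gained it.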
